A study of Mus musculus with 36 samples.

Results

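The genes described here are 59 interferon-stimulated genes, chosen by symbol from a written list, and each symbol was found in all 4 deposited expression tables of the series. A member was tested in a table when its mean over that table's libraries was at least 1 TPM (transcripts scaled to a fixed library total), which 52 members reached in sorted splenic subsets, 54 in the ionomycin culture, 55 in the antibody culture and 58 in tumours. The series contrasts functional with desensitized mouse natural killer (NK) cells in 36 RNA-seq libraries, 12 groups of 3 biological replicates.

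The first table holds mature splenic NK cells (CD27-, CD11b+) sorted by the inhibitory receptors Ly49C, Ly49I and NKG2A. All of these receptors were present on TP cells, Ly49I alone on SP cells and none on TN cells. The donors were C57BL/6 animals, either wild-type (WT) or B2m-/- (KO). B2m is the gene for the light chain of MHC class I. The second table holds WT NK cells purified from splenocytes cultured for 22 h in vehicle or in the calcium ionophore ionomycin. The third holds NK cells from WT splenocytes kept for 48 h in medium or on plate-bound antibodies, either to NKp46 and NKG2D or to NKp46 and DNAM-1, which are activating receptors. The fourth holds CD27- CD11b+ NK cells from WT mice, taken from subcutaneous tumours of MC38, a mouse colon carcinoma line made B2m-deficient, 10 days after injection. The knockout is of the whole animal, so every cell that the KO NK cells met also lacked B2m. In the tumours the deletion was in the injected cells and, per the genotype labels, the host was WT.

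B2m stood between 73.9 and 128 TPM in the 9 KO libraries and between 2915 and 3419.6 TPM in the 9 WT libraries, in accord with the genotype labels. All 7 NK cell markers were above 0 in every table. TPM keep no record of sequencing depth, and precision is given by the spread over 3 libraries. In bulk RNA, fewer cells of one kind and less RNA per cell cannot be told apart. In the antibody table the group in the sample title and the group in the table's column name differed for 6 of 9 samples, and the column names were followed. Each title group held the 3 libraries of a single replicate number, with a library from every column-name group.

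Interferons are secreted proteins that induce an antiviral program in cells that carry their receptors. Type I and type III interferons act on a promoter element called the interferon-stimulated response element (ISRE), which a complex with STAT2 and IRF9 binds, and interferon gamma acts on gamma-activated sites (GAS). NK cells both respond to interferons and are a main source of interferon gamma. The products include regulators of the response itself, proteins that block viral entry or copying, sensors of foreign nucleic acid, and guanylate-binding and immunity-related GTPases that attack the vacuoles of intracellular pathogens.

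The promoter stretches below belong to the members that passed the test in some comparison and had a sequence in the RefSeq promoter table (build GRCm38.p6), with Isg15 added as a classical ISRE gene. Each shows 160 bases up to the base before the transcription start, written 5′ to 3′, with the ISRE core in capitals (GAAA, any 2 bases, GAAA, searched on both strands).
Isg15 (chr4:156200819-156200978, minus strand): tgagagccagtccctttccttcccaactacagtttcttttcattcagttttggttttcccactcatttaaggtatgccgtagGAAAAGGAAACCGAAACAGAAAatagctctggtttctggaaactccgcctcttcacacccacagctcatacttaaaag
Gbp7 (chr3:142530176-142530335, plus strand): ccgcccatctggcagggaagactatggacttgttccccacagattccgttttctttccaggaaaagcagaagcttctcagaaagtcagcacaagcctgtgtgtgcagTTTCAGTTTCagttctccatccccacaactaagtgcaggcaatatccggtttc
Slfn8 (chr11:83020811-83020970, minus strand): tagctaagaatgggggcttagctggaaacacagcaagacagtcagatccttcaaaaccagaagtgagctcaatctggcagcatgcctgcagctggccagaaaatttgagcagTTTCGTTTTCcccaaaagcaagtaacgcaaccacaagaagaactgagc
Ifi213 (chr1:173599273-173599432, minus strand): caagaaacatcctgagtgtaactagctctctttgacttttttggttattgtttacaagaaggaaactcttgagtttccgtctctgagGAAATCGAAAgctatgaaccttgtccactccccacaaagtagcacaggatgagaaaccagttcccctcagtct
Ifitm2 (chr7:140955962-140956121, minus strand): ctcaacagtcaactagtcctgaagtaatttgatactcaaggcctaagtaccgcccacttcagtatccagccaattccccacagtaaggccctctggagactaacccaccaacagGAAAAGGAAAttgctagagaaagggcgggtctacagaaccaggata
Epsti1 (chr14:77904079-77904238, plus strand): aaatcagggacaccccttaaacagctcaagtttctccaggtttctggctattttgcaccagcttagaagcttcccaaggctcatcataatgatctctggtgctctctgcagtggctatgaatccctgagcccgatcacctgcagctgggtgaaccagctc
Isg15 holds 3 overlapping cores. Gbp7, Slfn8, Ifi213 and Ifitm2 hold 1 each, read on the opposite strand in Gbp7 and Slfn8, and the Epsti1 stretch holds none. Slfn8 has a second listed start, whose window holds the same core. Of the 59 members, 43 matched the table with 52 promoters of 300 bases, and 28 of these 52 (53.8%) held the core, against 1131 of all 32851 promoters (3.44%). A GAS-like match (TTC, any 3 bases, GAA), which reads the same on both strands, was in 12 member promoters (23.1%) against 8.3% of all promoters, and the Gbp7 promoter held such matches. The matches overlapped an ISRE core in 2 member promoters (3.85%) and in 0.0731% of all promoters. By role, 7 of 8 GTPase genes with a promoter held the core, 8 of 12 antiviral effectors, 6 of 9 nucleic acid sensors and 1 of 4 transcription factors and regulators, the last being Stat2.

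In resting sorted subsets the list was led by Irf1, a transcription factor that answers to interferon gamma, with a mean of 341 TPM over 18 libraries. Ifi203, a DNA sensor of the interferon-inducible Ifi200 family, followed at 231 TPM, then the GTPase gene Ifi47 at 202 TPM, Epsti1 at 195 TPM and Ifi209 at 162 TPM. By role, the median of the members' mean TPM was 80.5 for transcription factors and regulators, 40.3 for GTPases, 11.8 for nucleic acid sensors and 4.37 for antiviral effectors. Effectors thus had the lowest median, although Samd9l among them had a mean of 149 TPM. Isg15, a ubiquitin-like modifier, had a mean of 7.37 TPM, and Ifit3 and Ifit1, which bind viral RNA, 5.10 and 1.36 TPM. Rsad2, Ifitm2, Ifitm3, Iigp1, Ifit3b, Mx2 and Oas2 lay under 1 TPM. Among the other exemplars Irf7 stood at 108 TPM, Zbp1 at 86.0, Irf9 at 80.5, Stat2 at 63.8, Xaf1 at 62.8, Irgm1 at 55.9, Igtp at 35.0 and Gbp2 at 30.9 TPM. Eif2ak2 had 26.6 TPM, Mx1 22.4, Bst2 21.4, Usp18 20.4 and Oasl2 5.38 TPM. The members summed to between 3018 and 3403 TPM in each of the 18 libraries. The median standard deviation within groups was 0.25 in log2(TPM + 1) over the tested members and 0.31 over all tested genes, and it was highest for Isg20 at 1.18.

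The ligands and receptors of the pathway framed these levels. Ifnb1, Ifna1, Ifna4, Ifnl2 and Ifnl3 were listed at 0 in every library of all 4 tables, and Ifna2 was above 0 in a single KO TN library at 0.4 TPM. Ifng had a mean of 50.6 TPM in sorted subsets. Ifnar1 and Ifnar2, the type I receptor chains, had means of 115 and 84.1 TPM, and Ifngr1 had 714 TPM. Its partner Ifngr2 was at most 0.54 TPM in every library but WT TN replicate 2, which had 7.82 TPM. Reads of closely related genes (Ifit3 and Ifit3b, the Ifi200 genes, the Gbp, Oas, Irgm, Ifitm and Trim30 families) can be shared between copies. Levels of single members of these families are therefore uncertain.

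**Figure D1:**
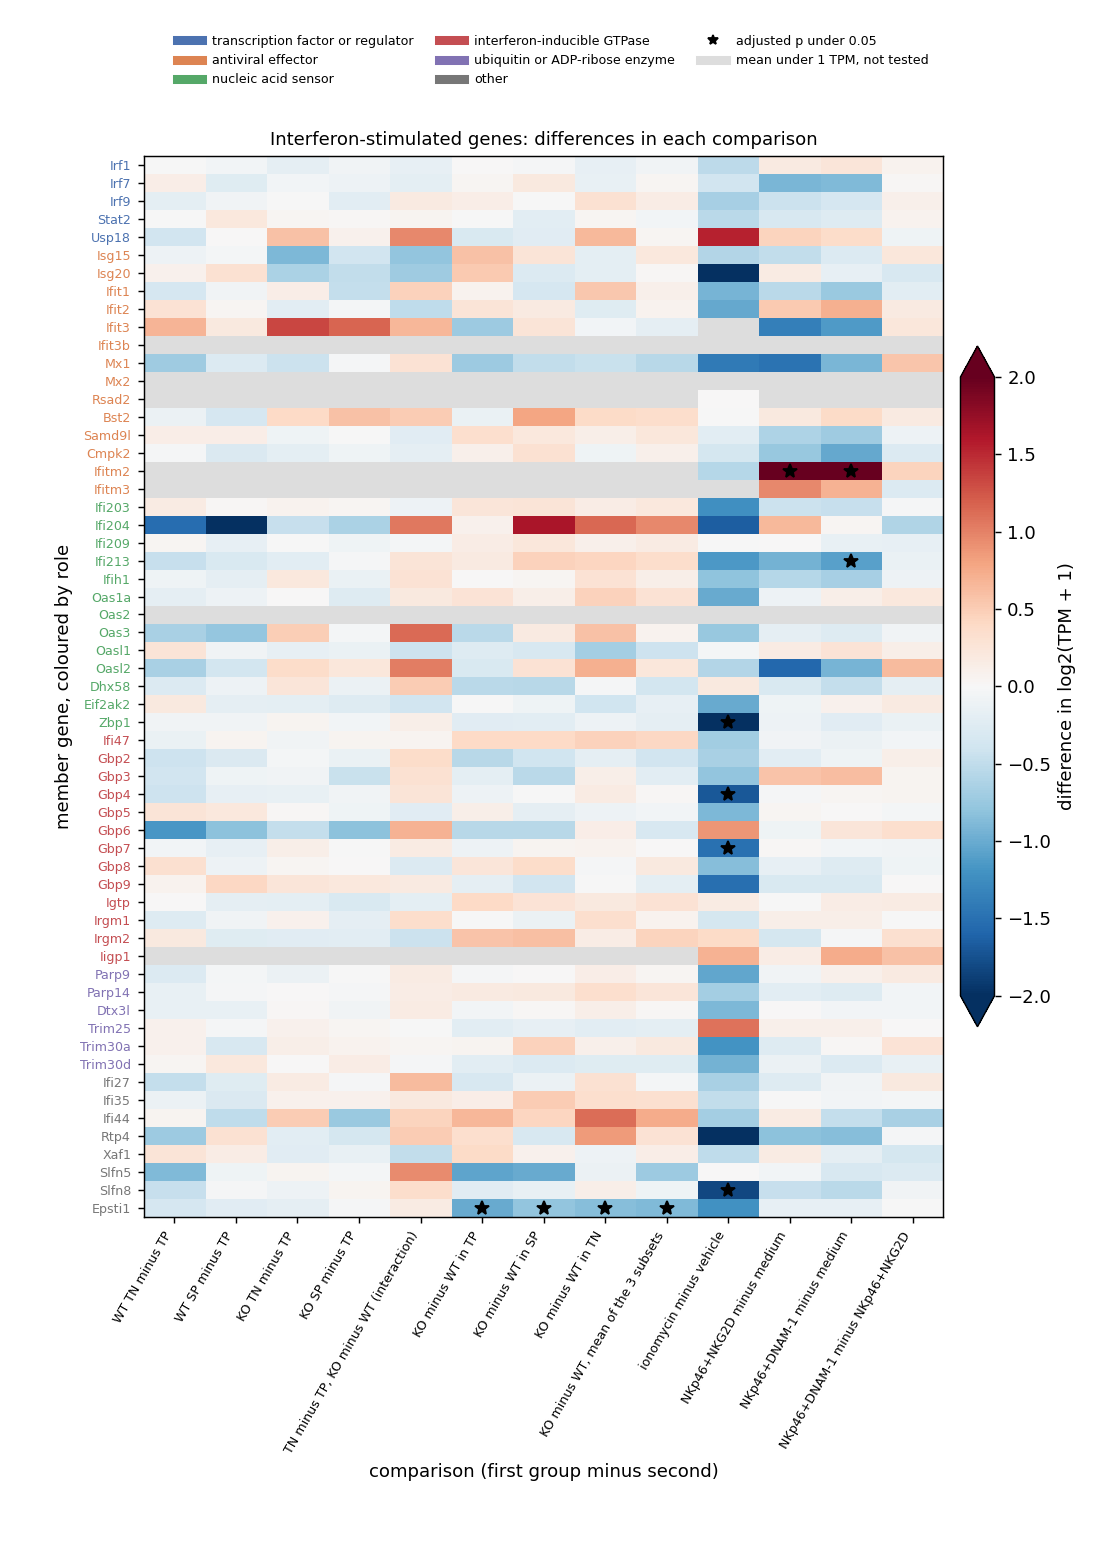
Differences in log2(TPM + 1) for the 59 members (rows, coloured by role) in the 13 comparisons (columns), with stars at adjusted p under 0.05 and grey where a member had a mean under 1 TPM. Epsti1 is starred in the 4 genotype columns, Gbp4, Gbp7, Zbp1 and Slfn8 in the ionomycin column, and Ifitm2 and Ifi213 in the antibody columns.

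The comparison of receptor subsets asks whether NK cells without self-specific inhibitory receptors differ from those that carry them. In WT mice no member passed an adjusted p of 0.05 between TN and TP cells (limma with Benjamini-Hochberg adjustment), and 1.31% of the 12018 genes tested did. At an unadjusted p under 0.05, 9 of 52 members were lower in TN cells and 0 were higher, which is 17.3% against 6.86% of all genes on the lower side, while 5.66% of all genes were on the higher side. Of the members, 33 had a difference under 0, with a median of -0.11 in log2(TPM + 1) against -0.01 over all genes. Without WT TN replicate 1 the median was -0.02 with 27 members under 0, without WT TN replicate 3 it was -0.18, and without WT TP replicate 3 it was -0.07. Marker sums also differed without overlap between these groups. The NK markers summed to 16453 to 17323 TPM in WT TN and 18549 to 19449 TPM in WT TP cells, with 2 of 7 called lower and 1 higher. Gzma made up most of this gap, at 7841, 7856 and 8263 TPM in TN against 10202, 9884 and 9816 TPM in TP cells. Ncr1 and Nkg7 also lay lower in all TN libraries, while Eomes, Klrk1 and Itga2 lay higher in all of them. The 6 B cell markers summed to 279.8 to 324 against 163 to 179 TPM, mostly Ighm, with Ms4a1 at most 1.23 TPM and 1 marker called higher. The 8 myeloid markers summed to 0.31 to 7.38 against 11.6 to 14.6 TPM, with 0 called. Their part in the members' differences was not tested. The 3 with the smallest p-values were Epsti1, named for epithelial-stromal interaction, at -0.34 (SE 0.09, adjusted p = 0.075), Gbp4 at -0.41 (SE 0.12, adjusted p = 0.121) and Ifi204 at -1.52 (SE 0.46, adjusted p = 0.133). Gbp4 stood at 144, 139.8 and 135 TPM in WT TP cells and at 112, 100.2 and 104 TPM in WT TN cells. Its 3 TN libraries all lay under its 3 TP libraries. Ifi204 stood at 3.19, 6.30 and 4.62 TPM in WT TP cells, at 0, 1.65 and 1.73 TPM in TN cells and at 0, 0 and 0.88 TPM in SP cells. All WT TN and SP libraries of Ifi204 lay under the TP libraries, at levels of a few TPM.

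WT SP and TP cells, a comparison that shares the TP libraries, gave 0 called members, with 0.191% of all genes called. At an unadjusted p under 0.05, 3 members were lower and 0 higher, against 4.03% and 3.69% of all genes. Of the 52 members, 39 had a difference under 0, with a median of -0.09 against 0 over all genes. The smallest p-values belonged to Ifi204, which differed by -2.17 (SE 0.46, adjusted p = 0.0748 by limma), Epsti1 and Oas3. In KO mice TN minus TP gave 0 called members with 0.524% of all genes called, and SP minus TP gave 0 with 0.2% called. At an unadjusted p under 0.05 there were 2 members in the first, against 6.43% of genes, and 1 in the second, against 2.93%. A difference under 0 was seen for 26 of 52 members in the first and 38 in the second. The median was 0.0004 in the first, against -0.027 over all genes, and -0.06 in the second, against -0.0056 over all genes. The smallest p-values were those of Irf1, Ifit3 and Epsti1 in TN minus TP, and of Gbp3, Gbp6 and Ifit3 in SP minus TP. The test of whether the TN minus TP difference itself depended on genotype called 0 members and 0.025% of genes, and at an unadjusted p under 0.05 it held 2 members (3.85%, against 6.27% of genes). Its smallest p-values were those of Xaf1, with -0.49 (SE 0.18, adjusted p = 0.718 by limma), Oas3 with 1.13 (SE 0.48, adjusted p = 0.739) and Irgm2 with -0.43 (SE 0.22, adjusted p = 0.805). An interaction above 0 was seen for 34 of 52 members, with a median of 0.17 against -0.01 over all genes. The median ran from 0.068 to 0.205 in the alternatives. With 0 members called, a WT subset difference in these genes was not shown to depend on B2m. TP cells of KO mice carried more myeloid marker RNA: the summed level of 8 myeloid genes was 61.5 to 222 TPM there, against at most 14.6 TPM in the other subset libraries. Lyz2, S100a8, S100a9 and Ngp made up most of it, and C1qa, C1qb and Adgre1 were at or near 0. The B cell markers, mostly Ighm and Igkc, summed to 320.2 to 501 TPM in KO TP against 163 to 179 TPM in WT TP cells, with Ms4a1 at most 1.29 TPM and 0 called. The 5 T cell markers summed to 12.5 to 17.6 against 2.64 to 4.88 TPM, with Cd3e at most 1.03 TPM and 1 called higher. The part of these markers in the KO TP values was not tested.

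**Figure D2:**
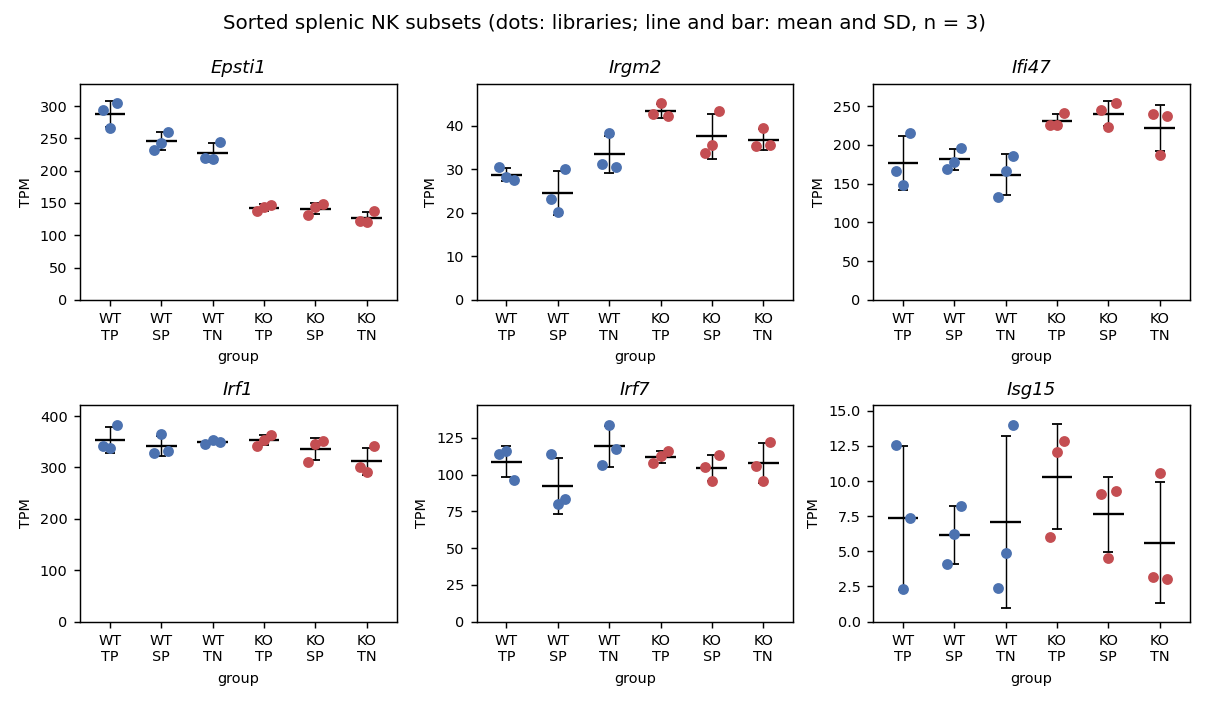
TPM of Epsti1, Irgm2, Ifi47, Irf1, Irf7 and Isg15 in the 6 sorted groups; dots are libraries, the line and bar are the mean and SD of 3. Epsti1 is lower in all 9 KO libraries than in all 9 WT libraries, the libraries of Irf1 and Irf7 overlap between genotypes taken over all subsets, and Isg15 spreads widely within groups.

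Between genotypes 1 member fell, Epsti1, and it fell in every subset. Epsti1 stood at 294, 266 and 304 TPM in WT TP cells and at 137, 144 and 147 TPM in KO TP cells. In SP cells it stood at 233, 243 and 260.1 TPM in WT and at 131, 144 and 148 TPM in KO mice. In TN cells it stood at 219.8, 219 and 245 TPM in WT and at 122, 119.9 and 137 TPM in KO mice. Every KO library lay under every WT library. By limma, each with SE 0.09, the difference was -1.01 in TP cells (adjusted p = 2.25e-06). It was -0.79 for SP cells (adjusted p = 4.61e-05) and -0.85 for TN cells (adjusted p = 2.96e-05). That is 2.01-fold, 1.73-fold and 1.80-fold lower on the log2(TPM + 1) scale. Averaged over the 3 subsets of equal replicate number, which the column names read as 1 mouse but the pairing check did not show (0 of 18 pairs correlated above 0.1), the difference was -0.88 (SE 0.07, 95% interval -1.04 to -0.73, adjusted p = 0.000348). The myeloid sum was at most 7.38 TPM in the SP and TN libraries of both genotypes, and its part in the Epsti1 difference in TP cells was not tested. The call in TN cells was lost when the model was fitted to the WT TN and KO TN libraries alone (adjusted p = 0.0591).

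Called genes made up 1.59% of all genes for TP cells, 1.35% for SP cells, 0.716% for TN cells and 1.86% over the mean of the subsets, so 1 of 52 members (1.92%) is near the background. On the lower side alone these shares were 0.607%, 0.582%, 0.291% and 0.724%. No member rose at the threshold. The nearest were 2 GTPase genes: Irgm2, with a mean genotype difference of 0.44 (SE 0.09, adjusted p = 0.0596), and Ifi47, with 0.42 (SE 0.10, adjusted p = 0.0785). Irgm2 ran from 33.7 to 45.2 TPM in KO libraries and from 20.3 to 38.4 TPM in WT libraries, with medians per group between 23.3 and 42.8 TPM. Ifi47 ran from 187 to 254 TPM in KO and from 133 to 215 TPM in WT libraries. Compared within a subset, Ifi47 did not overlap in any of the 3, and Irgm2 did not overlap in TP and SP cells, while the ranges over all subsets overlapped for both genes. Over the mean of subsets, 11 members were higher and 5 lower at an unadjusted p under 0.05, which is 21.2% and 9.62% of the members, against 10.5% and 6.28% of all genes. The median member difference was 0.05 and that over all genes 0.04. Irf1, the most abundant member, differed by -0.06 (SE 0.06) and Irf7 by 0.03 (SE 0.08), with adjusted p-values of 0.626 and 0.876. Isg15 differed by 0.21 (SE 0.29, adjusted p = 0.749), and its libraries ran from 2.30 to 13.99 TPM without order by genotype.

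Of 60 other listed pathway genes, 45 were tested in sorted subsets, and 3 were higher in KO cells over the mean of the subsets, with 0 lower. Ifngr1, the ligand-binding chain of the interferon gamma receptor, rose by 0.68 (SE 0.06, adjusted p = 0.000995). It ran from 799 to 991 TPM in the 9 KO libraries and from 494 to 589 TPM in the 9 WT libraries, with no overlap. Socs1, a feedback inhibitor of JAK kinases, rose by 1.36 (SE 0.18, adjusted p = 0.00777), from 3.12 to 9.07 TPM in WT libraries and from 11.7 to 24.0 TPM in KO libraries. Ube2l6, the conjugating enzyme for ISG15, rose by 1.34 (SE 0.26, adjusted p = 0.0419). Ifngr1 was called in each subset and Socs1 in TP and TN cells.

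**Figure D3:**
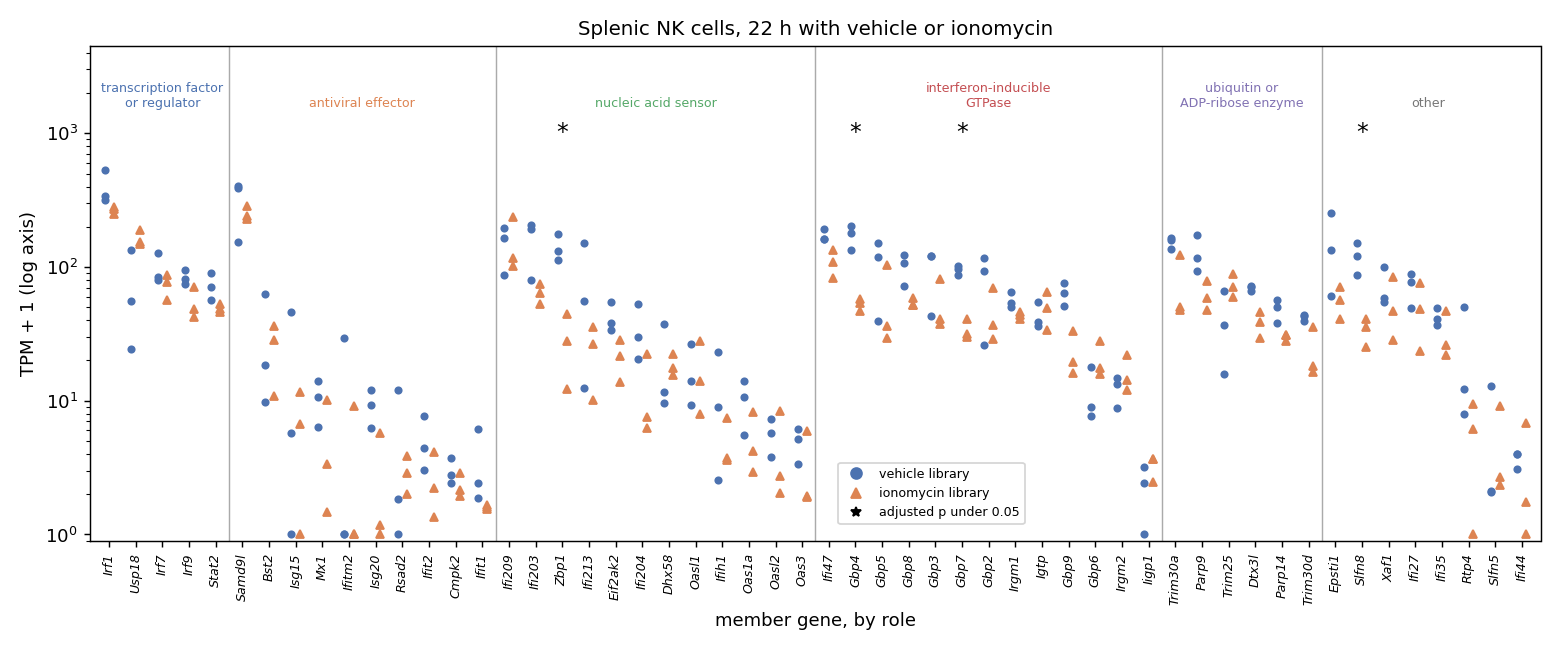
TPM + 1 on a log axis for the 54 members tested in the ionomycin table, ordered by role and mean; circles are the 3 vehicle and triangles the 3 ionomycin libraries, and stars mark adjusted p under 0.05. Gbp4, Gbp7, Zbp1 and Slfn8 are starred with all triangles under all circles, and Usp18 has all triangles above all circles.

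The ionomycin culture asks what sustained calcium entry does to NK cells, and here the members lay lower after ionomycin. Of 54 members, 4 fell (7.41%), and 0 rose, against 2.91% of all 14372 genes called in either direction and 1.25% called lower. At an unadjusted p under 0.05, 18 members (33.3%) were lower and 1 higher, against 7.1% and 7.99% of all genes. The groups did not overlap, with ionomycin lower, for 20 members (37%) against 9.57% of all genes, and with ionomycin higher for 1 member (1.85%) against 10.5%. In all, 45 of 54 members had a difference under 0, with a median of -0.68 against -0.0044 over all genes. The summed level of the members was 1953 to 2821 TPM in ionomycin and 3321 to 3925 TPM in vehicle libraries.

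Among the GTPases, Gbp4 stood at 200.1, 179.9 and 134 TPM in the vehicle libraries, and ionomycin libraries had 45.8, 53.0 and 56.4 TPM. It fell by 1.69 (SE 0.24, adjusted p = 0.0107 by limma), or 3.23-fold. Gbp7, another guanylate-binding protein gene and one with both an ISRE core and GAS-like matches in its promoter, stood at 86.6, 101 and 95.1 TPM in vehicle libraries against 39.8, 29.1 and 30.3 TPM in ionomycin libraries. It fell by 1.49 (SE 0.25, adjusted p = 0.0198). In both genes the vehicle libraries lay well above the ionomycin libraries. Across the family, 9 of 13 tested GTPase genes had a difference under 0, with a median of -0.70, and 5 were lower at an unadjusted p under 0.05. Gbp2 differed by -0.65 (SE 0.57), Irgm1 by -0.36 (SE 0.25), Igtp by 0.16 (SE 0.33) and Iigp1 by 0.70 (SE 0.72), and none of these passed the test.

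Zbp1, which senses Z-form nucleic acid and can start necroptosis, showed the largest fall of the called members. It stood at 175, 129.7 and 112 TPM in vehicle libraries against 43.2, 11.3 and 26.7 TPM in ionomycin libraries, and fell by 2.48 (SE 0.45, adjusted p = 0.0255), or 5.56-fold. All 3 ionomycin libraries lay under the vehicle libraries. Of the 12 tested sensors, 11 had a difference under 0, with a median of -0.91. Eif2ak2, the kinase PKR, differed by -1.01 (SE 0.38, adjusted p = 0.248) and Oasl2 by -0.59 (SE 0.71). Slfn8, a Schlafen family gene, stood at 86.1, 120.2 and 151 TPM in vehicle libraries against 39.8, 24.0 and 34.9 TPM in ionomycin libraries. It fell by 1.82 (SE 0.31, adjusted p = 0.0205), with no overlap. Of the 6 enzymes of ubiquitin or ADP-ribose transfer, which tag proteins during the antiviral response, 5 had a difference under 0 with an unadjusted p under 0.05, the median was -0.92 and 0 were called. Trim25, a ubiquitin ligase that activates RNA sensing, was the other one, with 1.09 (adjusted p = 0.336).

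Usp18 was the exception among regulators. This protease removes ISG15 and damps type I receptor signalling, and it stood at 132, 54.8 and 23.2 TPM in vehicle libraries against 189, 147 and 154 TPM in ionomycin libraries. All its ionomycin libraries lay above the vehicle libraries, which themselves spread over a wide range. The difference was 1.53 (SE 0.53, unadjusted p = 0.0185), but the adjusted p was 0.206. The other 4 regulators had differences under 0: Irf9 -0.66 (SE 0.28), Stat2 -0.54 (SE 0.27), Irf1 -0.52 (SE 0.23) and Irf7 -0.38 (SE 0.28), none called. Irf1 stood at 317, 526 and 341 TPM in vehicle libraries against 249.8, 282 and 273 TPM in ionomycin libraries, without overlap. Among the effectors, 9 of 10 had a difference under 0, with a median of -0.58. Isg15 and Ifitm2 varied most between replicates, and Isg15 was listed at 44.8, 4.78 and 0 TPM in vehicle libraries against 10.6, 0 and 5.69 TPM in ionomycin libraries. Mx1 differed by -1.42 (SE 0.77), Bst2 by -0.01 (SE 0.71), Rsad2 by 0.01 (SE 0.97), Ifit1 by -0.92 (SE 0.73) and Xaf1 by -0.51 (SE 0.42), none called. Ifit3, Ifit3b, Mx2, Oas2 and Ifitm3 had means under 1 TPM.

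Of 45 tested pathway genes in this table, 2 fell and 0 rose. Ly6e, which restricts virus entry, fell by 2.53 (SE 0.47, adjusted p = 0.027), from 1489, 894 and 496 TPM with vehicle to 276, 95.9 and 126 TPM. Sting1, the adaptor for cytosolic DNA sensing, fell by 1.61 (SE 0.31, adjusted p = 0.0299), from 203, 200.4 and 132 TPM to 64.8, 38.6 and 72.1 TPM. Both genes had no overlap between groups. Other measures also differed between these groups. The summed level of the 7 NK markers was 4494 to 5495 TPM in ionomycin libraries and 6799 to 11620 TPM with vehicle, and 3 of the 7 were called lower. Gzma made up most of this gap, at 1344, 867 and 1017 TPM with ionomycin against 6271, 5833 and 3222 TPM with vehicle. Eomes went the other way without overlap, at 587, 801 and 710 TPM against 160, 322 and 431 TPM, and Nkg7 overlapped. The T cell markers summed to 12.8 to 25.3 TPM in ionomycin and 2.24 to 7.87 TPM in vehicle libraries, with 0 called, Cd3e at most 1.84 TPM and Cd4 and Cd8b1 at 0. The myeloid markers were uneven within both groups, with sums of 0.81 to 121 TPM in ionomycin and 0 to 286 TPM in vehicle libraries and 0 called. S100a9 stood at 150 TPM in vehicle replicate 3, at 57.3 TPM in ionomycin replicate 3 and at 0 in the other libraries. Ifng stood at 27589, 2522 and 82.4 TPM in vehicle libraries against 1556, 1002 and 852 TPM in ionomycin libraries, so vehicle replicate 1 stood apart. Their part in the members' differences was not tested. Without vehicle replicate 1, 5 members were called (Gbp4, Gbp7, Gbp8, Slfn8 and Ifi203, all lower), Zbp1 was not, 46 members had a difference under 0 and the median was -0.67. Without any 1 of the ionomycin libraries, or without vehicle replicate 2, 0 members and 3 to 24 genes in all were called, and without vehicle replicate 3 the called members were Gbp4 and Gbp7. The member median stayed between -0.96 and -0.54 in these fits.

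**Figure D4:**
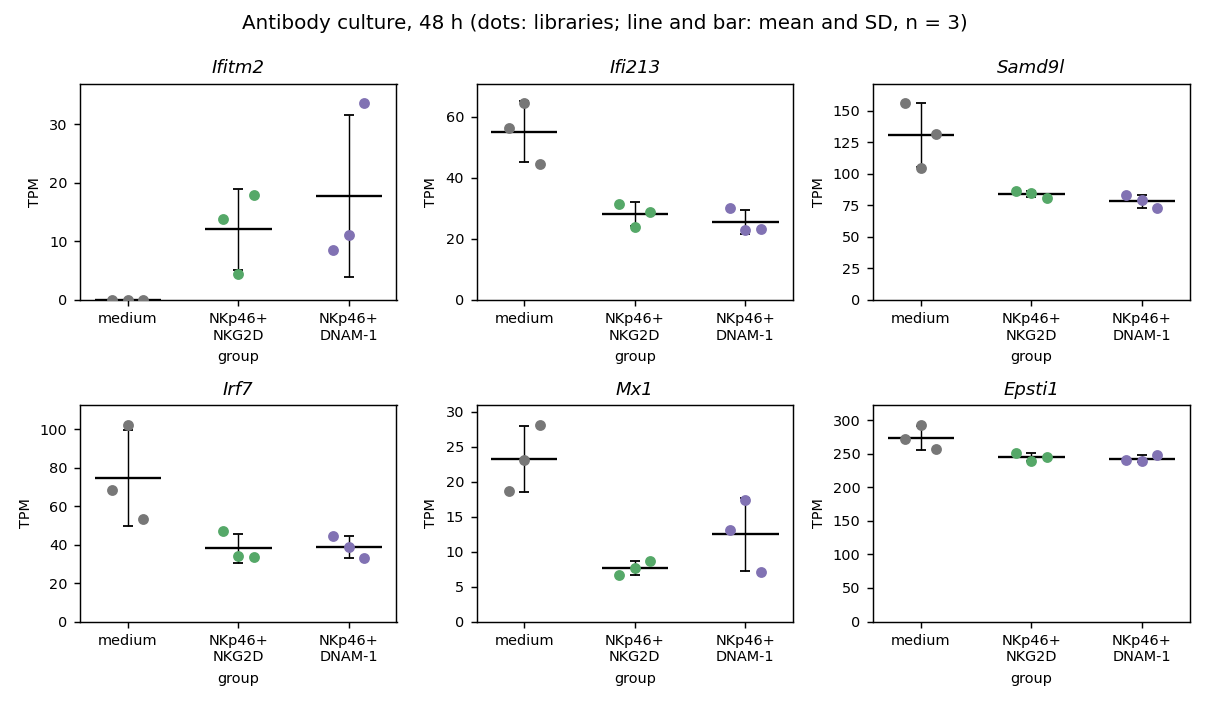
TPM of Ifitm2, Ifi213, Samd9l, Irf7, Mx1 and Epsti1 after 48 h in medium or on plate-bound antibodies; dots are libraries, the line and bar are the mean and SD of 3. Ifitm2 is at 0 in all 3 medium libraries and above 0 in all 6 antibody libraries. Ifi213, Samd9l, Irf7, Mx1 and Epsti1 are lower in all 6 antibody libraries than in medium.

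The antibody culture asks how NK cells change after long engagement of activating receptors. The 2 antibody comparisons share the 3 medium libraries, so their values are not independent and are given side by side. For NKp46 and NKG2D, 1 of 55 members was called, higher (1.82%), against 0.431% of 13689 genes in either direction and 0.153% higher. For NKp46 and DNAM-1, 1 was called higher and 1 lower (3.64% together), against 0.782% of genes in either direction, 0.285% higher and 0.497% lower. In both, the member called higher was Ifitm2, which was at 0 in medium and passed the filter only through the antibody groups. Its calls are therefore no independent support for a difference. At an unadjusted p under 0.05, 11 members were lower and 1 higher in the first, and 10 lower and 2 higher in the second. That is 20% and 18.2% of the members on the lower side, against 8.23% and 9.45% of all genes, while 6.88% and 8.5% of all genes were on the higher side. The antibody libraries all lay under medium for 14 and 12 members (25.5% and 21.8%), against 9.84% and 11.6% of all genes. They all lay above medium for 2 and 6 members (3.64% and 10.9%), against 7.5% and 9.46% of all genes. The member medians were -0.10 and -0.15, against -0.04 over all genes in both. These medians moved with single libraries: they were -0.21 and -0.16 without medium replicate 1, -0.02 and -0.02 without medium replicate 3, -0.16 for the first pair without its replicate 3, and -0.05 for the second pair without its replicate 2. With groups taken from the sample titles the medians were 0.03 and 0.13, with 25 and 14 of 55 members under 0. Each title group is a single replicate number with a library from every column-name group, so that fit compares replicate numbers.

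Ifitm2, a membrane protein that restricts virus entry, was listed at 0 in all 3 medium libraries. It stood at 13.9, 4.44 and 17.9 TPM with antibodies to NKp46 and NKG2D, and at 8.44, 11.0 and 33.6 TPM with antibodies to NKp46 and DNAM-1. Every antibody library lay above the medium libraries. The medium libraries also listed fewer genes above 0, with 13555, 14674 and 14604, against 16107 to 18096 in the antibody libraries. The part of this in the Ifitm2 values was not tested. It rose by 3.53 (SE 0.58, adjusted p = 0.0336) and 3.98 (SE 0.58, adjusted p = 0.0176) in log2(TPM + 1), sizes that depend on the added 1 because medium was at 0. With a mean of 0 in medium, Ifitm2 passed the filter on low values only through the antibody groups, so its call is no independent support for a difference. Without that filter, 0 members were called with either pair. Ifitm3, a gene of the same family, stood at 0, 0 and 0.51 TPM in medium and reached 4.05 TPM with antibodies, with libraries at 0 in each group. Ifit3b, Mx2, Oas2 and Rsad2 had means under 1 TPM in this table. Ifitm2 was uneven elsewhere too, with 0 in 4 of 6 libraries of the ionomycin table.

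Ifi213, an Ifi200 family gene, stood at 56.2, 64.4 and 44.5 TPM in medium. It stood at 31.5, 23.9 and 28.8 TPM with NKp46 and NKG2D antibodies and at 30.0, 22.9 and 23.4 TPM with NKp46 and DNAM-1 antibodies. The medium libraries all lay above the 6 others. It fell by 1.08 with the second pair (SE 0.20, adjusted p = 0.0426), and with the first pair the difference was -0.94 (SE 0.20, adjusted p = 0.0864). Samd9l, an antiviral translation inhibitor, stood at 156, 105 and 132 TPM in medium, between 81.1 and 86.4 TPM with the first pair and between 72.8 and 83.0 TPM with the second. It did not overlap, with differences of -0.61 (adjusted p = 0.125) and -0.71 (SE 0.15 in both, adjusted p = 0.0664). With replicate number as a block, which the column names read as 1 mouse per number, Samd9l was also called for the second pair, making 3 members, and the genes called rose from 59 to 239 and from 107 to 528.

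Other exemplars gave no call. Irf7, the main amplifier of type I interferon, stood at 68.6, 102 and 53.1 TPM in medium and between 33.2 and 46.8 TPM in the 6 antibody libraries, with no overlap, and differed by -0.91 (SE 0.24, adjusted p = 0.148) and -0.89 (SE 0.24, adjusted p = 0.122). Mx1, a dynamin-like GTPase against influenza viruses, differed by -1.47 (SE 0.32, adjusted p = 0.0937) and -0.91 (SE 0.32, adjusted p = 0.195). Oasl2 differed by -1.56 and -0.94 (SE 0.43 in both), Irf9 by -0.43 and -0.34 (SE 0.13) and Ifit3 by -1.37 and -1.14 (SE 0.50). Not all members lay lower, as 19 and 20 of 55 had a difference above 0. Mean TPM was higher with both pairs for Irf1 (184 in medium, then 208 and 217), Usp18 (13.2, then 19.8 and 18.0) and Bst2 (21.1, then 23.9 and 27.2). Ifit2 ran from 8.04 to 12.55 TPM in medium, 12.8 to 15.19 TPM with the first pair and 14.29 to 18.4 TPM with the second. Epsti1, the most abundant member here, stood at 272, 293 and 257 TPM in medium and between 239 and 251 TPM with antibodies, with differences of -0.16 and -0.17 (SE 0.09). The GTPase genes as a group sat near 0, with medians of -0.02 and 0.0038 and 0 called, among them Ifi47 and Gbp4. Between the 2 antibody pairs, 0 members passed, at an adjusted or an unadjusted p under 0.05, against 0.0146% and 1.22% of genes. The smallest p-values were those of Trim30a, Mx1 and Gbp6. The 95% interval of the difference was -0.03 to 0.59 for Trim30a and -0.16 to 1.28 for Mx1.

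Of 44 tested pathway genes, 1 fell with each pair. Ifng stood at 656, 520 and 600.3 TPM in medium, at 234, 275 and 292 TPM with the first pair and at 212, 275 and 286 TPM with the second. It fell by 1.14 (SE 0.14, adjusted p = 0.00531) and 1.20 (SE 0.14, adjusted p = 0.00373), with no overlap. The medium libraries also carried more early-response RNA: 8 handling-stress genes summed to 2304 to 3545 TPM in medium, 553 to 684 TPM with the first pair and 583 to 686 TPM with the second, and 4 were called lower. Egr1, Ier2 and Junb made up most of this sum, and the heat-shock genes Hspa1a and Hspa1b were at most 1.36 TPM. Summed markers of plasmacytoid dendritic cells, a main source of type I interferon, were 12.9 to 41.7 TPM in medium and 4.81 to 10.8 TPM with antibodies; nearly all of it was Cox6a2, while the defining marker Siglech was at most 0.40 TPM in any library of the table. Their part in the members' differences was not tested. With groups taken from the sample titles, 0 members were called in either comparison and the difference of Ifitm2 for the first pair was -0.37. Leaving out medium replicate 1, or 1 of the antibody libraries (replicate 1 or 3 of the first pair, 2 or 3 of the second), also left 0 called members. Without medium replicate 2 the called member was Samd9l in both comparisons. Without medium replicate 3 the called members were Ifitm2 and Ifi213 for the first pair, and these with Irf7 for the second.

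**Figure D5:**
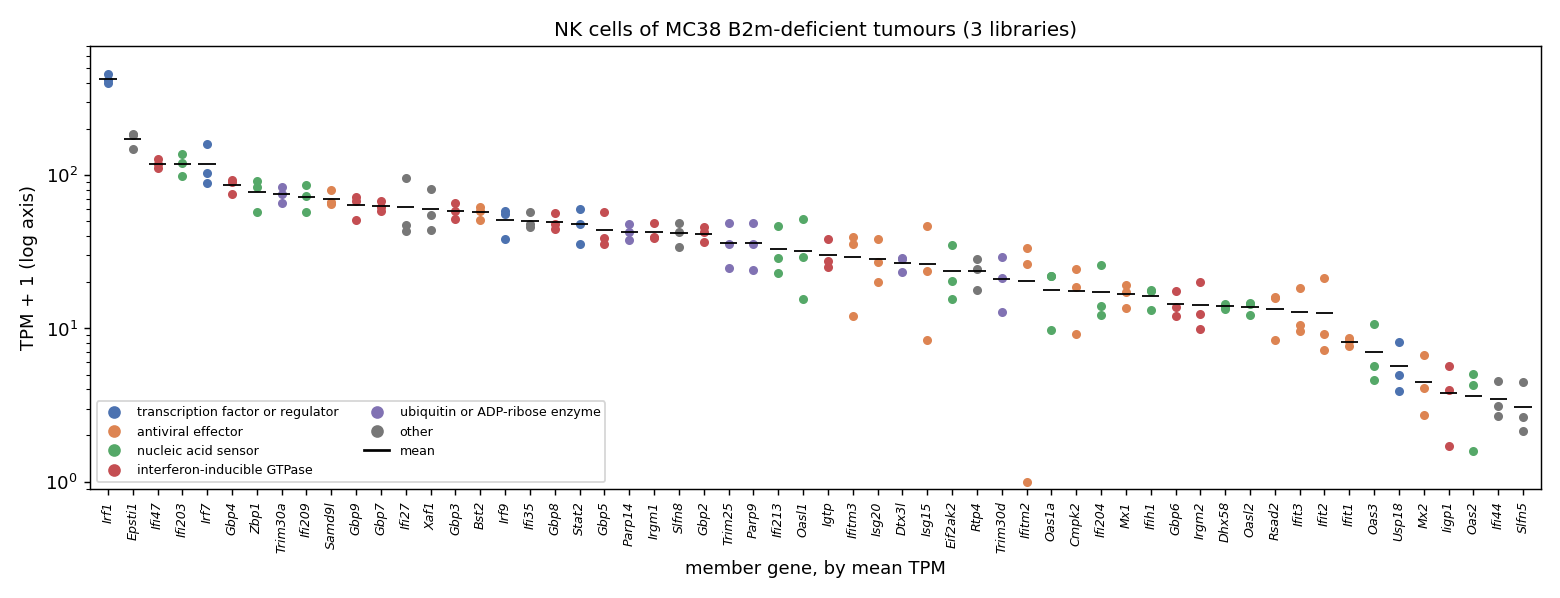
TPM + 1 on a log axis for the 58 members tested in tumour NK cells, ordered by mean and coloured by role; dots are the 3 libraries and lines the mean. Irf1 leads with 3 libraries close together, while Ifitm2 and Isg15 spread over a wide range.

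Tumour NK cells had no comparison group in their table, so their values are levels only. Irf1 was the highest member, at 399.7, 461 and 418 TPM, followed by Epsti1 at 186, 148 and 182 TPM, Ifi47 with a mean of 118 TPM, Ifi203 with 118 TPM and Irf7 at 159.6, 88.7 and 103 TPM. Irf1 varied little between libraries and Irf7 more. Among effectors Bst2, which tethers virus particles to the cell, had a mean of 56.4 TPM. Ifitm3 stood at 11.2, 34.4 and 38.8 TPM, Ifitm2 at 0, 25.6 and 32.8 TPM, and Isg15 at 45.6, 22.6 and 7.43 TPM. The order of the 3 libraries for Ifitm2 and Ifitm3 was thus the reverse of that for Isg15. An order of 3 libraries does not show a relation between the genes. Means were 12.5 TPM for Rsad2, 11.9 for Ifit3, 7.18 for Ifit1, 15.7 for Mx1 and 12.8 for Oasl2. Zbp1 had 76.4 TPM, Gbp2 40.6, Irgm1 41.5, Igtp 29.2, Iigp1 2.79, Eif2ak2 22.7, Xaf1 59.0, Irf9 50.0, Stat2 46.9 and Usp18 4.69 TPM. Ifit3b was the only member under 1 TPM. The median of the members' means was 16.1 TPM for effectors, 43.3 for GTPases and 50.0 for regulators. Cxcl10, an interferon-induced chemokine, stood at 119, 142 and 130.3 TPM and Ifng at 453, 403 and 752 TPM. Handling-stress genes summed to 4442 to 9741 TPM and myeloid markers to 18.8 to 65.1 TPM, and their part in these levels was not tested. The column names of these libraries contain B2MKO and SP, terms that could stand for the tumour, the host or a sorted subset. The WT host is as the genotype labels give it and the CD27- CD11b+ gate as the titles do. The files do not settle which reading is right.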

How the data were processed

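RNA-seq was done on 36 mouse NK cell samples, and per the labels poly(A) libraries were made from total RNA. The authors deposited 4 tables of gene levels in TPM, a unit scaled by gene length and library. Per the submitters' processing notes, STAR, RSEM and the build GRCm39 were used, with versions not given in the sources used here. TPM keep no read counts, so depth is unknown, and a library had between 12290 and 18096 genes above 0.

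Tests used log2(TPM + 1), which understates low genes' changes, on genes averaging 1 TPM or more. Group means were fitted separately in each table by limma 3.58.1 (R 4.3.3) with a variance trend, and Benjamini-Hochberg adjustment covered all genes of each of 13 two-sided comparisons. Called means an adjusted p under 0.05. The p-values measure the spread between samples labelled as biological replicates. With 3 samples against 3, an exact permutation test cannot give a p under 0.1. The procedure was run on simulated data with large fixed shifts and independent noise. That run does not show its sensitivity to smaller differences.

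The members, other gene lists, exemplars and alternatives were chosen with earlier results of these data known. Members were named from 20 exemplars, called members, the 3 with the smallest p where none was called, and the 5 highest and all members under 1 TPM in each table. Not all of these are given values for every table, so the members given in the culture sections are a selection. Other members named, such as Isg20, Trim25, Gbp8 and Ifit2, were chosen after their values were seen. Column names of the subset and antibody tables read as 1 mouse per number. As a pairing check, deviations from the group mean were correlated between libraries of equal number, giving a mean r of 0.010 (subsets) and 0.064 (antibodies). Alternatives changed the pseudocount, filter, scaling, variance trend, samples fitted, pairing and antibody labels, or left out 1 replicate.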

Additional observations from a re-analysis of the deposited data

How the results depend on the processing

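Counts of called members are given here. Leaving out 1 library at a time gave 0 throughout for the 4 subset comparisons, the interaction and the comparison of the antibody pairs. It gave 1 to 1 for KO minus WT in TP and in TN, and 1 to 2 in SP. Over the mean of the subsets, where leaving out a replicate number removes its 3 libraries, it gave 1 to 2. It gave 0 to 5 for ionomycin, 0 to 2 for NKp46 with NKG2D and 0 to 3 for NKp46 with DNAM-1. Without a variance trend the counts were 1 for WT SP minus TP, 2 for KO minus WT in TP, 2 in SP, 0 for ionomycin, 0 for the NKG2D pair and 1 for the DNAM-1 pair. Without a filter on low values they were 2 in TP, 2 for ionomycin, 0 for the NKG2D pair and 0 for the DNAM-1 pair. With a filter at 5 TPM the mean of the subsets gave 2 and ionomycin 5, with Gbp9 added. Fits on the compared groups alone gave 0 for KO minus WT in TN, 0 for the NKG2D pair and 0 for the DNAM-1 pair. Groups from sample titles, which compare replicate numbers, gave 0 for both pairs. There the Ifitm2 difference for the NKG2D pair was -0.37 in place of 3.53. The causes were not tested. With the replicate block 4 members were called in the ionomycin table, where the samples share only a number (pairing check: mean correlation 0.062, 1 of 3 pairs over 0.1), and 477 genes in place of 418. The block changed no other member count than that of the DNAM-1 pair, which was 3. The Epsti1 difference over the mean of the subsets stayed between -0.92 and -0.84, and its call held in all 12 alternatives. Depth is unknown, so counting error could not be given.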
